A study of Mus musculus with 2 samples.

Results

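The zinc finger gene clusters of human chromosome 19 were examined for H2BK120ub, histone H2B monoubiquitinated at lysine 120, in chromatin immunoprecipitation followed by sequencing (ChIP-seq) of primary liver cells. Members were the peaks of chromosome 19 whose midpoint lay in 1 of 5 windows of the human build hg19. Given the windows, they were chosen by position alone. The windows themselves were chosen with earlier results of these data known. Of the 229310 peaks in both lists, 1595 were members, 729 of 101866 in WT and 866 of 127444 in UBR7-KO. The windows were called clusters 1 to 5 in the order of the chromosome. Cluster 1 ran from 19.8 to 24.3 Mb, cluster 2 from 36.6 to 38.4 Mb, cluster 3 from 44.3 to 45 Mb, cluster 4 from 52.3 to 54 Mb and cluster 5 from 56 to 58.9 Mb. Together they made up 11.6 Mb, or 19.6% of the 59.1 Mb of the chromosome.

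The WT cells came from wild-type mice and the UBR7-KO cells from Alb-Cre;UBR7fl/fl mice, in which Cre recombinase under the albumin promoter deletes the floxed UBR7 gene in hepatocytes. Cells of the liver that do not use the albumin promoter keep UBR7. UBR7 is a ubiquitin ligase for H2BK120. According to the methods, both genotypes were male, 8 weeks old and on a C57BL/6 background, whereas the labels describe the cultured cells as conditionally immortalized. Each genotype had 1 library, so no difference between the genotypes could be tested and none has a replicate error. The question set by the design was where the mark lies with and without UBR7.

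KRAB zinc finger genes are the largest family of transcriptional repressors in mammals, and chromosome 19 is their main seat in the human genome. Their proteins bind DNA through arrays of zinc fingers and recruit TRIM28 (KAP1) through the KRAB domain, which brings in SETDB1 and the silencing mark H3K9me3, often at retrotransposons. The genes arose by tandem duplication, so neighbours within a cluster are alike in sequence. Cluster 1 lies beside the centromere on the short arm, in the band that holds ZNF91, a repressor of SVA and L1 retrotransposons. Cluster 5 lies near the end of the long arm, in the band of the imprinted gene PEG3 and of ZNF274, which guides H3K9me3 to the last exons of zinc finger genes. H2BK120ub itself is laid down by RNF20 and RNF40 along the bodies of transcribed genes as RNA polymerase II elongates.

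The samples are labelled as mouse, while the peaks have positions of the human genome. In both lists, 0 peaks lay outside the hg19 chromosomes. The KRAB zinc finger families of the 2 species expanded largely apart, and many human members lack a single mouse counterpart. The lists hold no sequence by which the species of the reads could be checked. Genes were not assigned to the peaks, because no annotation or sequence of hg19 was used here. The label of the windows as zinc finger clusters could therefore not be checked against gene positions, and they are called clusters by the rule that set them.

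By peak coverage, the clusters were a sparse part of a densely covered chromosome. In WT, peaks covered 2.22 Mb of the clusters, or 19.1% of their length, against 48.9% of the rest of chromosome 19 and 11.6% of the genome. In UBR7-KO, peaks covered 2.08 Mb of the clusters, or 17.9%, against 36.9% and 10.3%. The clusters thus had 0.391 times the coverage of the rest of the chromosome in WT and 0.486 times in UBR7-KO, yet 1.64 and 1.74 times the genome's. Without the longest stretch of the chromosome that was free of peaks in both lists, 3.13 Mb from 24.6 to 27.7 Mb, the rest was covered at 52.3% and 39.5%. Otherwise the lengths were those of hg19, with no assembly gaps (stretches of unknown sequence) removed. In how much of each part reads could be placed was not measured.

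The low coverage of the clusters relative to the rest depended on the threshold in UBR7-KO but not in WT. Pileup is the number of fragments stacked over a peak, and the background is the level that the caller expected there. When only peaks standing 3 times or more above the background were kept, the clusters were covered at 6.91% and the rest at 17.8% in WT, a ratio of 0.388. In UBR7-KO the values were 7.94% and 8.61%, a ratio of 0.923. When only peaks with a fold enrichment (the caller's ratio of pileup to background) of 2.5 or more were kept, the ratio was 0.269 in WT, from 3.79% and 14.1%. It was 0.925 in UBR7-KO, where so few peaks were left that they covered only 0.808% of the clusters and 0.874% of the rest. The thresholds are not independent, and at a given fold enrichment a peak reaches 3 times the background more easily where the background is low, as it was in the clusters.

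**Figure D1:**
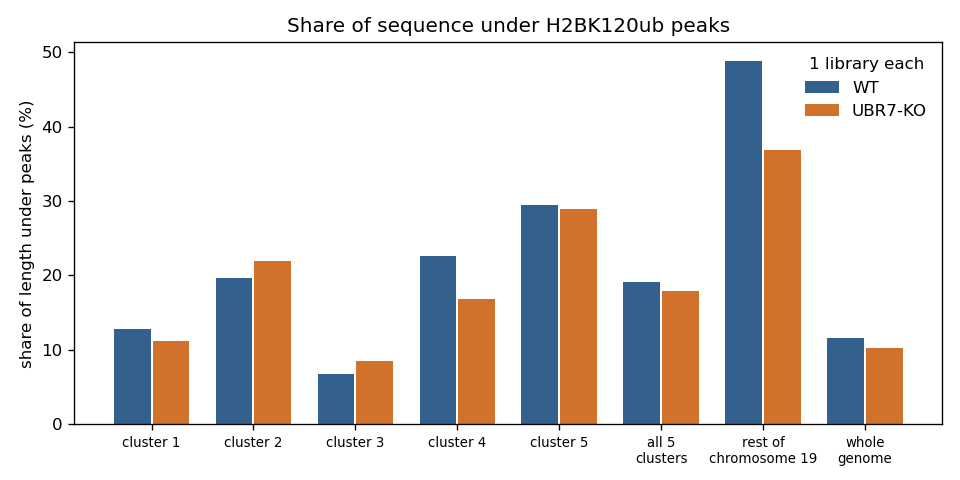
Share of sequence under H2BK120ub peaks, in percent, for each of the 5 clusters, the clusters together, the rest of chromosome 19 and the whole genome. Each bar is 1 library, so there are no error bars. The clusters reach at most 29.5% (cluster 5 in WT), under the 48.9% and 36.9% of the rest of the chromosome.

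The clusters differed widely among themselves. Cluster 5 was the most covered in both lists, at 29.5% in WT and 28.9% in UBR7-KO. Cluster 3 was the least covered, at 6.74% and 8.52%, below the genome's share in both. Cluster 1 followed with 12.8% and 11.1%. Clusters 2 and 4 changed places between the lists: cluster 4 had 22.7% in WT and 16.9% in UBR7-KO, and cluster 2 had 19.6% and 21.9%. These orders are descriptions of 2 libraries, and how far another library of the same genotype would move them is unknown.

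Peaks were more numerous per length in the clusters than in the rest of the chromosome, although they covered less of it. In WT, 62.8 peaks per Mb lay in the clusters and 52.9 per Mb in the rest. In UBR7-KO the densities were 74.7 and 56.2 per Mb. Cluster 3 was again the sparsest, with 25 WT and 33 UBR7-KO peaks, or 35.7 and 47.1 per Mb. The densest were cluster 4 in WT, at 81.8 per Mb, and cluster 2 in UBR7-KO, at 89.4 per Mb.

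Members were shorter than the other peaks of the chromosome. The median member was 2011 bp long in WT (quartiles 850 and 3639 bp), against 5183.5 bp in the rest of the chromosome. In UBR7-KO the median member was 1573.5 bp long (quartiles 734.75 and 2998.25 bp), against 3777 bp. Members were in this respect closer to the peaks of the whole lists, whose medians were 1584.5 and 1361.5 bp. Peaks over 10000 bp, of the size of whole transcribed genes, numbered 28 of 729 in the WT clusters (3.84%, 95% Wilson interval 2.67 to 5.50), against 7.58% of the whole WT list and 29.7% of the rest of chromosome 19. In UBR7-KO they numbered 24 of 866 (2.77%, interval 1.87 to 4.09), against 3.75% and 21.5%. These intervals describe counting error alone, since adjacent peaks depend on each other.

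Most of the long members lay in cluster 5. It held 18 of the 28 in WT and 19 of the 24 in UBR7-KO. Cluster 1 held 4 and 2, cluster 2 held 3 and 3, and cluster 4 held 3 and 0. Cluster 3 had none in either list, its longest WT peak measuring 7372 bp and its longest UBR7-KO peak 6791 bp. At the other end, peaks under 1000 bp made up 28.4% of WT members and 33.6% of UBR7-KO members, against 35.1% and 39.3% of the whole lists and 11.3% and 15.6% of the rest of the chromosome. Cluster 1 was the richest in them, at 35.6% and 43.6%.

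**Figure D2:**
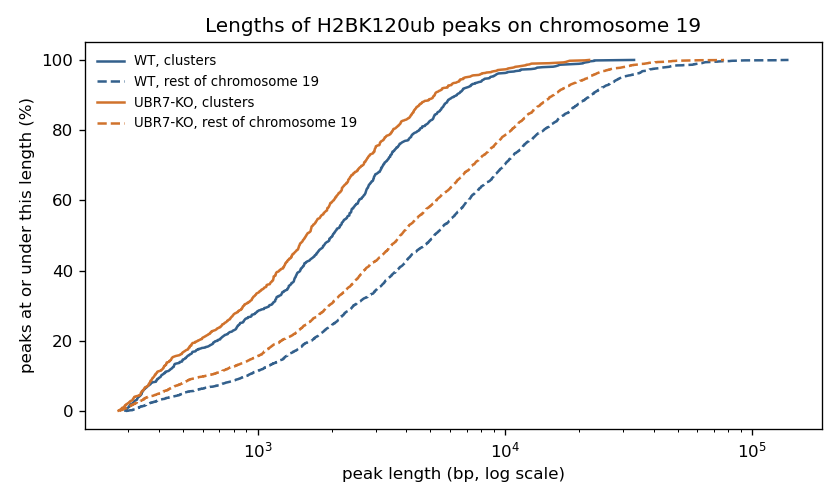
Cumulative share of peaks, in percent, at or under each length in bp (log axis), for the clusters (solid) and the rest of chromosome 19 (dashed) in each library. In both libraries the cluster curve lies to the left, with medians of 2011 and 1573.5 bp against 5183.5 and 3777 bp.

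Gaps between neighbouring peaks were wider in the clusters. The WT members had a median gap of 7896 bp and the UBR7-KO members one of 6372 bp, against 3121 and 4697 bp in the rest of the chromosome. From centre to centre, however, neighbouring peaks of the clusters stood 11529.5 bp apart in WT and 9278 bp apart in UBR7-KO, less than the 13711 and 12575 bp of the rest. Cluster 3 had the widest median gaps, at 21265.5 and 15594.5 bp.

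On the median over borders, coverage was lower inside the windows than outside, and in WT the decline began before the border. It was followed in bins of 100 kb at 8 of the 10 borders. The end of cluster 1 was left out because its outer bins reach into the stretch free of peaks, and the end of cluster 5 because the chromosome ends within 500 kb of it. From the bin farthest out to the border, the medians in WT were 74.5%, 70.5%, 67.6%, 60.4% and 43.5%. In UBR7-KO they were 48.5%, 54.6%, 34.5%, 49.5% and 31.7%, without a steady order. In the 3 bins inside, from the border inward, the medians were 25.2%, 13.7% and 16.8% in WT and 22.8%, 15.6% and 13.8% in UBR7-KO.

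The borders did not all behave alike. At the start of cluster 1, mean coverage went from 74.0% over the 500 kb outside to 26.0% over the first 300 kb inside in WT, and from 52.4% to 21.96% in UBR7-KO. At the end of cluster 3 it went from 58.0% outside to 5.94% inside in WT and from 39.9% to 10.1% in UBR7-KO. The start of cluster 5 was the shallowest step of the long arm in WT, from 72.8% to 59.2%, and in UBR7-KO coverage was higher inside, at 57.2%, than outside, at 48.4%. The first 200 kb of cluster 5 were thus covered as densely as the sequence before them, with 75.1% and 79.5% in its first and second 100 kb in WT and 76.2% and 63.1% in UBR7-KO. The end of cluster 1, toward the centromere, was the only border with less coverage outside than inside in both lists, at 2.47% and 11.7% in WT and 4.87% and 9.65% in UBR7-KO. Its outside mean covers only the nearest 300 kb, since the bins beyond reach into the stretch free of peaks. At the end of cluster 5, with 2 bins outside, coverage went from 61.7% outside to 35.9% inside in WT. In UBR7-KO it was 32.7% outside and 33.9% inside.

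**Figure D3:**
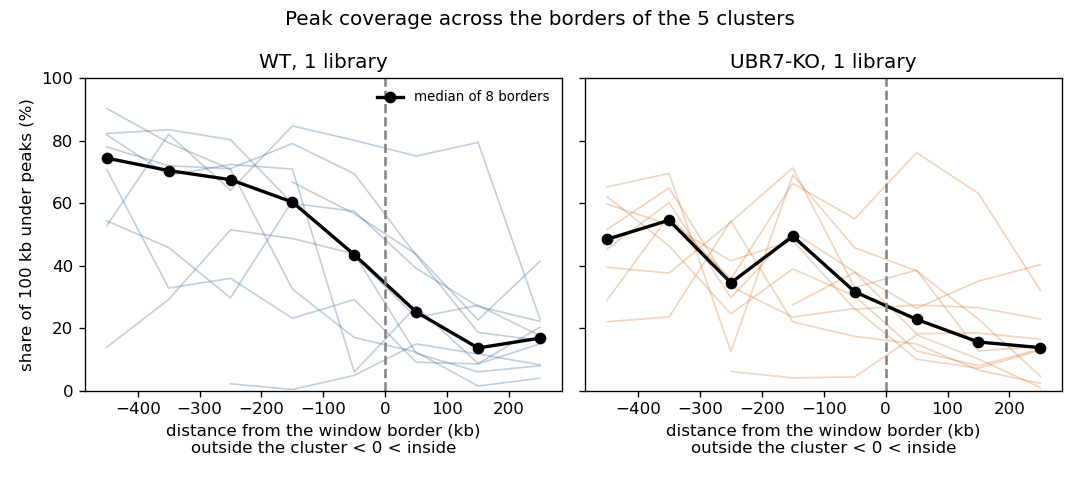
Share of each 100 kb under peaks, in percent, against the distance from a window border in kb (negative outside the cluster, positive inside), for each library. Thin lines are single borders, without bins in the stretch free of peaks, and black points are the median over the 8 borders with all bins, which goes from 74.5% to 16.8% in WT and from 48.5% to 13.8% in UBR7-KO.

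Within the clusters, coverage varied from bin to bin. Over 116 bins of 100 kb it ran from 0% to 79.5% in WT, with a median of 15.7%, and from 0% to 76.2% in UBR7-KO, with a median of 14.7%. The 475 bins of the rest had medians of 52.4% and 36.9%. Coverage above 50% was reached in 4 WT and 5 UBR7-KO bins of the clusters, all of them in cluster 5, against 247 and 155 bins of the rest. Only 2 cluster bins were without a peak in both lists, and both lay in cluster 1.

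The lists followed each other across these bins, with a Pearson's r of 0.74 and a Spearman's rho of 0.63 over the 116 bins of the clusters and 0.80 for both over the rest. The bins are neighbours on 1 chromosome within 2 libraries, so these values are descriptions without a test.

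Net covered length differed less between WT and UBR7-KO in the clusters than in the rest of the chromosome. This does not mean that the same sequence was covered. Of the sequence covered in either list, 24.4% was covered in both in the clusters, against 46.0% in the rest. Covered length in UBR7-KO was 0.939 times that in WT in the clusters, 0.755 times in the rest and 0.885 times over the genome. The ratio of the clusters exceeded that of the rest by 1.24 times. It stayed higher under each of the 11 alternatives that give both ratios, by 1.20 to 3.44 times. Leaving out the free stretch acts on both lists alike and could not change this. Leaving out a window kept the rest at 0.755, and shortening the windows moved it only to 0.758. Clear changes of both ratios came from the fold threshold (3.44 times), 3 times the background (2.38), lists of equal size (1.27) and merging (1.36). The direction of the cluster ratio itself was not fixed. It was 0.213 for peaks that reached a fold enrichment of 2.5, 1.15 for those that reached 3 times the background and 1.05 with peaks within 5000 bp merged, while the rest gave 0.062, 0.484 and 0.773. Both thresholds depend on read depth, which is unknown. The recovered background had a member median of 1.99 in WT and 1.31 in UBR7-KO. At a given fold enrichment, 3 times the background is therefore reached more easily in UBR7-KO.

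The clusters again differed. The ratio was 0.870 in cluster 1, 1.12 in cluster 2, 1.26 in cluster 3, 0.745 in cluster 4 and 0.981 in cluster 5. Cluster 4 was the only one under the 0.755 of the rest. Cluster 3 had a small base, 47.2 kb in WT and 59.7 kb in UBR7-KO. Peak number moved the other way, with 1.19 times as many members in UBR7-KO as in WT, 1.06 times as many peaks in the rest and 1.25 times over the genome. It was higher in UBR7-KO in every cluster but cluster 4, which had 139 and 137 peaks. This too rested on the threshold: 138 WT and 81 UBR7-KO members reached a fold enrichment of 2.5, a ratio of 0.587, and lists of equal size gave a ratio of 0.968, whereas 248 and 465 members reached 3 times the background, a ratio of 1.88. As for coverage, the level of 3 times the background is reached more easily in UBR7-KO at a given fold enrichment.

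The ratios were also compared at like coverage. In bins covered at 10% to 20% on the mean of both lists, the ratio of UBR7-KO to WT was 0.909 over 52 cluster bins and 0.871 over 47 bins of the rest. At 20% to 30% it was 0.911 over 28 cluster bins and 0.925 over 54 bins of the rest. The ratios lay apart in the other classes. They were 1.07 over 21 cluster bins and 0.851 over 36 bins of the rest under 10%, and 1.11 over 9 cluster bins and 0.694 over 91 bins of the rest at 30% to 50%. Bins of the rest covered by at least 50%, of which there were 215, had a ratio of 0.750. The clusters had 4 such bins, with a ratio of 0.851. The ratios were thus alike at 10% to 30% coverage, where 80 of the 116 cluster bins lay, and higher in the clusters in the other classes. The ratio of 1.11 rests on few bins, among them 57.6 to 57.7 Mb, with 16.8% in WT and 59.0% in UBR7-KO. Of its 9 bins, 6 were covered less in UBR7-KO (66.7%), against 73.6% of those in the rest. Under 10% these shares were 47.6% and 50%, and at 50% or more 75% and 87.9%. The part that coverage plays in the difference was not tested.

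Of the 116 cluster bins, 66 were covered less in UBR7-KO than in WT and 48 more. In the rest, 331 of 475 bins were covered less and 112 more. The bins in which UBR7-KO exceeded WT the most lay in cluster 5, from 57.6 to 57.7 Mb, with 16.8% in WT and 59.0% in UBR7-KO, and from 56.4 to 56.5 Mb, with 5.94% and 42.1%. They were followed by 37.1 to 37.2 Mb in cluster 2, with 7.72% and 34.9%, where 2 WT peaks stood against 12 UBR7-KO peaks. The largest differences in the other direction lay in cluster 4, at 34.8% and 13.0% from 53 to 53.1 Mb and at 38.3% and 16.6% from 53.2 to 53.3 Mb, and in cluster 5, at 28.8% and 7.66% from 58.1 to 58.2 Mb. These bins were chosen after their values were seen.

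**Figure D4:**
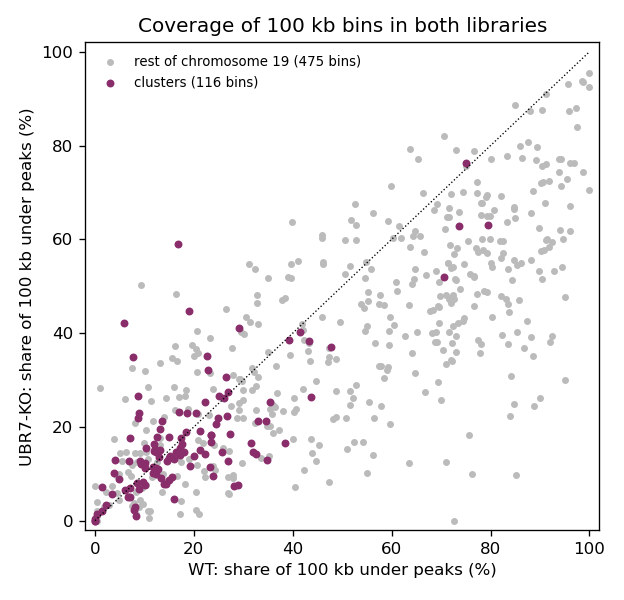
Share of each 100 kb bin under peaks in WT (horizontal, percent) and UBR7-KO (vertical, percent), for 116 bins of the clusters and 475 of the rest of chromosome 19, with the line of equal coverage dotted. Cluster bins lie mostly under 30% on both axes, and the highest of the points well above the line at the left is the bin with 16.8% and 59.0%.

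Of the WT members, 361 of 729 overlapped a UBR7-KO peak by at least 1 bp (49.5%, interval 45.9 to 53.1), against 40.2% of the whole WT list and 63.8% of the rest of chromosome 19. In the other direction, 387 of 866 UBR7-KO members overlapped a WT peak (44.7%, interval 41.4 to 48.0), against 35.2% and 70.6%. The clusters thus stood above the background of the lists and below the rest of their chromosome. The UBR7-KO list that WT peaks met covered 17.9% of the clusters, 36.9% of the rest and 10.3% of the genome. The WT list that UBR7-KO peaks met covered 19.1%, 48.9% and 11.6%. The part of this coverage in the shares was not tested. By cluster, the WT shares ran from 10 of 25 peaks in cluster 3 to 59.5% in cluster 5 and the UBR7-KO shares from 35.9% in cluster 1 to 56.1% in cluster 5. Under stricter definitions the shares were lower, at 15.9% and 13.4% when 50% of both peaks had to overlap.

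The shared sequence amounted to 0.844 Mb, which was 38.1% of the covered length of the clusters in WT and 40.6% of that in UBR7-KO. In the rest it was 55.3% and 73.2%. These shares too stand beside unlike coverage, since UBR7-KO peaks covered 17.9% of the clusters and 36.9% of the rest. WT peaks covered 19.1% and 48.9%, and the part of coverage in the shared length was not tested. Cluster 5 shared the most, at 48.8% and 49.8%, and cluster 3 the least, 11.4 kb or 24.2% and 19.2%. Peaks that met at least 2 peaks of the other list numbered 47 of 729 in WT (6.45%, interval 4.88 to 8.47), against 5.62% of the whole WT list and 18.9% of the rest. In UBR7-KO they numbered 31 of 866 (3.58%, interval 2.53 to 5.04), against 2.77% and 12.4%. These shares were near the background of the lists and under the rest of the chromosome.

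At like lengths, WT members and the WT peaks of the rest had counterparts about as often, with no fixed order, whereas UBR7-KO members had fewer. Among WT peaks under 1000 bp, 29.5% of members and 26.7% of the peaks in the rest had a counterpart. From 1000 bp to under 3000 bp the shares were 45.3% and 49.0%, at 3000 to 10000 bp 70.3% and 63.5%, and above that 85.7% and 89.7%. The UBR7-KO shares were lower in the clusters in every class, with 26.8% and 41.0% under 1000 bp, 46.5% and 53.4% from 1000 to under 3000 bp, 62.5% and 80.6% at 3000 to 10000 bp, and 91.7% and 97.0% above. A UBR7-KO peak meets a WT list that covers 19.1% of the clusters and 48.9% of the rest. A WT peak meets a UBR7-KO list that covers 17.9% and 36.9%. The part of these differences was not tested in either direction.

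In 265 places, 1 WT member and 1 UBR7-KO peak overlapped only each other. The WT peak was the longer in 152 of them (57.4%, interval 51.3 to 63.2), and the median length of the paired peaks was 2579 bp for WT and 1966 bp for UBR7-KO. In the rest it was the longer in 427 of 686 pairs (62.2%, interval 58.6 to 65.8), a share near that of the clusters. The lengths ranked with a rho of 0.33 and the fold enrichments with a rho of 0.16 across pairs of the clusters, against 0.48 and 0.01 in the rest. These are descriptions over peaks of 2 libraries, without a test.

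Fold enrichment in the clusters was low, as over the genome. Its median was 2.22 in WT and 2.16 in UBR7-KO, against 2.24 and 2.14 in the rest of the chromosome. A value of at least 2.5 was reached by 138 of 729 WT members (18.9%, interval 16.3 to 21.9), against 16.9% of the whole WT list and 18.2% of the rest, and by 81 of 866 UBR7-KO members (9.35%, interval 7.59 to 11.5), against 9.77% and 5.70%. The WT share lay near that of the rest. The UBR7-KO share was above that of the rest and near that of its whole list.

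The level of 3 times the background was reached by 34.0% of WT members, against 25.3% of the whole WT list and 25.7% of the rest, and by 53.7% of UBR7-KO members, against 44.9% and 31.9%. The recovered background was lower under the members than in the rest, with medians of 1.99 and 2.53 in WT and of 1.31 and 1.60 in UBR7-KO. The background of 12.6% of WT members and 12.7% of UBR7-KO members lay within 1% of the lowest level of their list, against 2.11% and 2.88% in the rest of the chromosome. The background is computed from pileup and fold enrichment, so these values are tied to each other. A lower background went with a higher share at 3 times the background in both lists, but not with a higher median fold enrichment in WT, and its part in the shares was not tested.

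The strongest member of each cluster and list was between 376 and 1839 bp long. Each was picked for its value in 1 list, so a lower value in the other follows in part from the choice. Ranks are by fold enrichment within each list, and the lists differ in length. The highest fold enrichment of the whole WT list belonged to a member of cluster 2, a peak of 614 bp (chr19:37784233-37784846) with a value of 5.42 and a pileup of 14.2. Its UBR7-KO counterpart (chr19:37784379-37784872) was 494 bp long, had a value of 2.73 and ranked 4411 in its list. The sequence before it was free of peaks in both lists for 38.2 kb. In UBR7-KO, the strongest peak of cluster 2 was another one (chr19:37372649-37373515), with 3.14, and the closest WT peak was 13500 bp from it.

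Cluster 5 held the peak that ranked 50 in the WT list (chr19:57017845-57019683), with a fold enrichment of 4.03 over 1839 bp. A UBR7-KO peak of 3119 bp overlapped it at only 2.12 and rank 75751. The strongest UBR7-KO member of any cluster also lay there (chr19:56904645-56906457), with 3.30 over 1813 bp and rank 313. Its WT counterpart had 2.44 and rank 21381. Both sites were marked in both lists.

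In cluster 1, the strongest WT peak (chr19:23075636-23077090) had 3.82 and ranked 110, and the UBR7-KO peak over it had 2.06 and ranked 99842. Its strongest UBR7-KO peak (chr19:21933369-21933744) was 376 bp long and had 3.16, against 2.35 in WT. In cluster 4, the strongest WT peak (chr19:52525494-52526652) had 3.09, against 2.06 in UBR7-KO. The strongest UBR7-KO peak of that cluster (chr19:53605392-53607089) had 2.88, against 2.11 in WT.

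In cluster 3, the sparsest, the strongest peak of both lists was at the same place, chr19:44952337-44953491 in WT with 2.89 and chr19:44952508-44953034 in UBR7-KO with 2.72, and the UBR7-KO peak lay wholly inside the WT peak. Of the 1000 highest peaks by fold enrichment, 5 were members in each list, in clusters 1, 2 and 5. That is 0.686% of WT members and 0.577% of UBR7-KO members, against 0.982% and 0.785% of the whole lists and 0.637% and 0.450% of the rest. The clusters were thus not rich in such peaks against the whole lists, and lay near the rest. Among the 5 members, 4 in WT and 2 in UBR7-KO had a counterpart, against 9 of 16 and 10 of 12 such peaks in the rest. With so few members the intervals were wide, 37.6% to 96.4% in WT and 11.8% to 76.9% in UBR7-KO.

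A fold enrichment of at least 2.5 in both lists was found at 12 of the 265 paired sites (4.53%), which were chosen after their values were seen, against 11 of 686 (1.60%) in the rest of the chromosome. The WT peak reached it at 60 of the 265 sites and the UBR7-KO peak at 30, counts that include the 12. In the rest these counts were 118 and 52 of the 686 pairs. The 12 sites fell in all 5 clusters, 4 in cluster 1, 2 in cluster 2, 1 in cluster 3, 3 in cluster 4 and 2 in cluster 5. The WT peaks had a median length of 1334.5 bp and the UBR7-KO peaks one of 750 bp. Besides the sites in clusters 2 and 3 above, they included a site in cluster 1 (WT chr19:20286040-20287217) with 2.74 in WT and 2.88 in UBR7-KO, and a site in cluster 4 (WT chr19:53102952-53105300) with 2.70 and 2.85. In cluster 5, a WT peak of 566 bp (chr19:57106353-57106918) had 3.12 and its counterpart 2.52, with centres 3.5 bp apart.

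**Figure D5:**
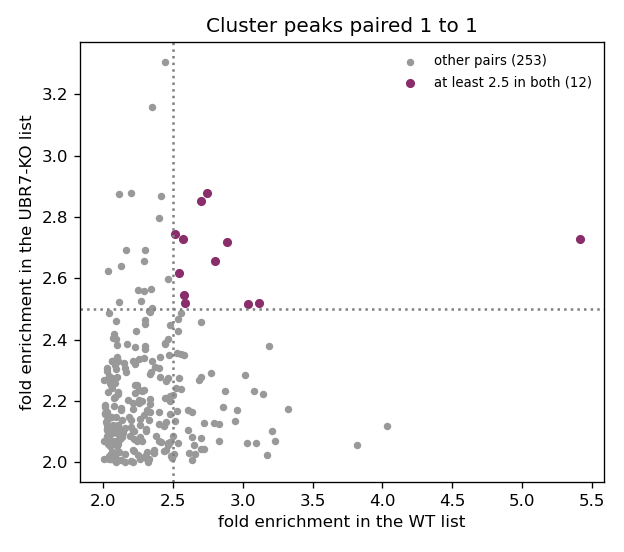
Fold enrichment in the WT list (horizontal) and in the UBR7-KO list (vertical) of the 265 cluster peaks paired 1 to 1, with dotted lines at 2.5. The 12 coloured pairs reach 2.5 in both lists, and the point at the far right is the WT peak with 5.42 and its counterpart with 2.73.

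The longest members were shared by the lists to very different degrees. In cluster 1 the longest peaks of both lists were at the same place, with their centres 59.8 and 56.7 kb from the start of the window. The WT peak (chr19:19848277-19871273) was 22997 bp long with a fold enrichment of 2.51, and the UBR7-KO peak (chr19:19850458-19863029), at 12572 bp and 2.22, lay wholly within it. The longest member of all was a WT peak of 33295 bp in cluster 5 (chr19:56663164-56696458), with 2.08. It was met by 3 UBR7-KO peaks that covered 86.6% of it.

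The longest UBR7-KO member, 21911 bp (chr19:56039443-56061353), lay in the densely covered first 100 kb of cluster 5, and WT peaks covered 80.3% of it. In clusters 3 and 4 the longest UBR7-KO peaks, of 6791 bp (chr19:44880759-44887549) and 9337 bp (chr19:53502432-53511768), met no WT peak at all, and they stood barely above the lower limit of the lists, at 2.01 and 2.02. The distance to the closest WT peak was 17276 bp in the first case and 26 bp in the second. In WT, the longest peaks of clusters 2, 3 and 4 (13487, 7372 and 12735 bp) were covered by UBR7-KO peaks over 31.0%, 26.3% and 26.7% of their length. In cluster 2 the longest UBR7-KO peak, 18034 bp (chr19:36614764-36632797), was covered over 30.2% by WT peaks.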

How the data were processed

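ChIP-seq for H2BK120ub was analysed in 1 WT and 1 UBR7-KO library, grouped by the genotype in the labels. According to the methods the authors aligned the reads to hg19 with BWA aln, whereas the submitters' processing notes name Bowtie 1.1.2. The authors called peaks in each library with MACS. The q-value threshold, the broad or narrow mode and whether the rabbit IgG named in the methods served as the caller's control are not given in the sources used here. The methods also speak of keeping peaks that recur and of a p-value limit for annotation in HOMER, without saying whether either was applied to these lists. The deposited pileup is a signal, the fragments stacked over a peak, and depends on depth. The deposited fold enrichment is a ratio of pileup to local background by the authors' caller, and none was under 2. Read depth per library is unknown, so pileups were not compared between the lists.

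The UBR7-KO list held 6 blank rows, which were dropped. Peaks were assigned to windows by midpoint, and coverage counted the bases of a window or bin under peaks. The background was recovered from (pileup + 1) / (background + 1), and its lowest level was taken at the 1st percentile of a list. Counterparts overlap by at least 1 bp. Shares have 95% Wilson intervals. No test between genotypes was run and no p-value is given. Positions are 1-based on hg19, with chromosome lengths from GenomeInfoDb 1.38.1 (R 4.3.3). Python 3.11.15, numpy 2.4.6, pandas 2.3.3, scipy 1.17.1 and matplotlib 3.10.9 were used. Overlap, coverage and merging were tested on 3000 simulated peaks, with the same counts as bedtools 2.31.1. The named peaks are those with the highest fold enrichment and the longest in each window and list. The windows and measures were chosen with earlier results of these data known. The planned gene analysis was not run, since it needs an annotation of hg19 and only mouse gene tables were at hand. Alternatives covered the thresholds, list size, merging, window borders, membership, overlap and leaving out windows.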

Additional observations from a re-analysis of the deposited data

How the results depend on the processing

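Of 69 values under the alternatives, 46 kept their direction and stayed within 1.5 times the main value or, for shares, within its Wilson interval, 19 moved further and 4 reversed. Leaving out each of the 4 shorter windows and leaving the longest stretch without a peak out of the rest were chosen after seeing the data. The ratio of peak numbers in the clusters, 1.19, moved to 1.88 at a pileup of 3 times the background and reversed to 0.587 at a fold enrichment of 2.5 and to 0.968 with lists of equal size. The ratio of covered lengths, 0.939, moved to 0.213 at a fold enrichment of 2.5 and reversed to 1.15 at 3 times the background and to 1.05 with peaks within 5000 bp merged. Coverage of the clusters over the rest stayed between 0.269 and 0.473 in WT, and in UBR7-KO moved from 0.486 to 0.925 at a fold enrichment of 2.5 and to 0.923 at 3 times the background. The shares with a counterpart, 49.5% in WT and 44.7% in UBR7-KO, moved to 8.70% and 14.8% at a fold enrichment of 2.5, 33.5% and 19.6% at 3 times the background, 57.6% and 52.7% with merging, 15.9% and 13.4% under 50% of both peaks, 29.5% and 32.2% under 50% of the counted peak, 53.2% and 49.3% without cluster 1, and 45.7% and 40.4% without cluster 5, and the WT share moved to 42.0% with lists of equal size. The cause of these changes was not tested. The thresholds of fold enrichment and of 3 times the background depend on read depth, which is unknown. No paired analysis was possible because there is only 1 library of either genotype, so none could be left out.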

Other observations

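The longest stretches of the clusters without a peak in either list were compared. In cluster 1 the longest measured 179.2 kb (chr19:20838746-21017895). The longest of the other clusters were 38.2 kb in cluster 2, 46.3 kb in cluster 3, 34.7 kb in cluster 4 and 39.9 kb in cluster 5.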
